A study of Mus musculus with 8 samples.

Results

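Whole lungs of C3H/HeOuJ mice exposed to ozone were compared with those of C3H/HeJ mice exposed to ozone, using 4 of the 8 arrays of the study, 2 for each substrain. The arrays were chosen by their labels alone, and the comparison covers the 10953 probe sets that were bright enough to test of 12488 on each array. The other 4 arrays, 2 of C3H/HeJ and 2 of C3H/HeOuJ lung in filtered air, served to show whether a difference was also present without ozone, and to estimate the spread. An exposure of 72 h is stated for the HeOuJ groups only. No ozone concentration, age or sex is given for any group, and the labels do not explain the replicate names 1a and 1b or say whether lungs were pooled. A p-value here therefore rests on how far the 2 arrays of a group differ, pooled over all 4 groups. The model also drew that spread toward the one of probe sets of like intensity. Such a spread may be purely technical.

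The substrains are closely related inbred lines. C3H/HeJ mice carry a missense mutation in Tlr4, the receptor that recognises bacterial endotoxin together with Cd14, whereas C3H/HeOuJ mice carry the intact receptor. Activated Tlr4 signals to the transcription factor NF-kB. Inhaled ozone is known to injure the airway epithelium and to draw in inflammatory cells. The series title names leakiness of the airways as its subject, and the comparison within ozone asks how lungs with and without the intact receptor differed after the same kind of exposure. Tlr4 itself was not analysed here, and its part in any difference was not tested.

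Defining lung transcripts were bright on every array. The club cell secretoglobin Scgb1a1 had intensities of 54557 and 40184 in HeJ ozone and of 68065 and 62015 in HeOuJ ozone. The surfactant gene Sftpc of alveolar type 2 cells had 49802 and 45561 against 100639 and 77498, and the alveolar type 1 gene Ager had 33062 and 28974 against 35765 and 39869. Ager and Sftpc were higher on both HeOuJ ozone arrays than on both HeJ ozone arrays, as was Scgb1a1, but none of the 3 passed the test (adjusted p of 0.50, 0.16 and 0.43 by limma). In whole tissue, a difference in the number of cells of a type cannot be told apart from a difference in RNA per cell.

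The HeOuJ ozone arrays stood apart from the other 6 in the actin and Gapdh control ratios and in measures taken from the expression values themselves. The ratio of 5' to 3' intensity of the actin control, a measure of RNA integrity and labelling, was 0.766 and 0.756 in HeOuJ ozone and lay between 0.432 and 0.603 on the other arrays. For the Gapdh control it was 1.34 and 1.18 against 0.775 to 1.06. Other controls did not set both arrays apart. The ratio of the transferrin receptor control was 0.490 and 0.289 in HeOuJ ozone against 0.184 to 0.518. That of the pyruvate carboxylase control was 0.875 and 0.410 against 0.204 to 0.453. The first principal component held 30.7% of the variance over all probe sets and placed the HeOuJ ozone arrays at scores of 53.2 and 19.3, with no other array above 0.54. The rank correlation between the 2 arrays of a group was 0.931 in HeOuJ ozone and 0.952 to 0.961 in the other groups. The component and the rank correlation include the genes described here, so differences at those genes also enter them. The actin and Gapdh ratios, the component score and the rank correlation move with the substrain difference in ozone at every gene described here. When the 5'/3' ratio, as the mean log2 ratio of actin and Gapdh, entered the limma model no probe set passed (470 had an unadjusted p under 0.05). The median log2 difference of the probe sets that had passed changed from 1.04 to 0.88 for those higher in HeOuJ and from -1.11 to -0.57 for those lower, with 35 of 38 and 66 of 69 keeping their direction. The median SE of these probe sets rose from 0.16 to 0.48 and from 0.18 to 0.51, and over all probe sets tested from 0.30 to 0.93.

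**Figure D1:**
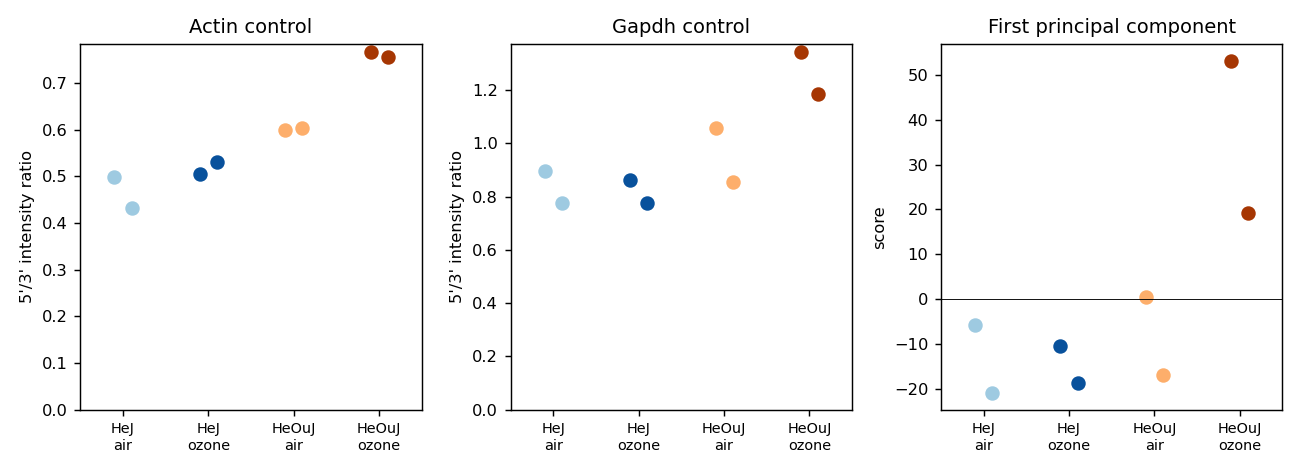
The 5'/3' intensity ratio of the actin and Gapdh controls (left and middle) and the score on the first principal component (right, no unit) for the 8 arrays, 2 points for each group of substrain and exposure. The HeOuJ ozone arrays are the highest in all 3 panels, at actin ratios of 0.766 and 0.756 against 0.603 or less elsewhere.

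In ozone, HeOuJ lungs had higher RNA for the inflammatory genes Lcn2, Tnf and F3, the leukocyte genes Cd68 and Itgb2, the immunoglobulin chains Ighm and Igha and the epithelial keratin Krt18. They had lower RNA for the kinase Wnk1, the surface protein Cd47, the tight junction scaffold Tjp1, the noncoding RNA Tug1 and the transcription factor Zfp281. Each of these genes passed on 1 probe set, and further probe sets of Lcn2, Ighm, Igha, Wnk1, Cd47, Tjp1 and Tug1 did not pass. Another Ighm probe set had a log2 difference of 0.07 in ozone. With the 5'/3' covariate Zfp281 turned to 0.55 (SE 0.87). Of the 10953 probe sets, 107 (0.977%) passed an adjusted p of 0.05 in limma, 38 higher in HeOuJ (0.347%) and 69 lower (0.630%). They named 32 genes higher and 61 lower. The log2 differences of those higher ran from 0.72 to 2.32 (median 1.04), and of those lower from -2.97 to -0.69 (median -1.11). The arrays of the substrains did not overlap at any of the 107, beside 45.9% of all probe sets tested (24.4% higher in HeOuJ and 21.6% lower). The count rested on every ozone array: leaving out any 1 of the 4 gave 0 passing probe sets (1129 to 2421 with an unadjusted p under 0.05), leaving out a HeJ air array gave 31 or 30, and leaving out either HeOuJ air array gave 8.

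Lcn2, which encodes the secreted lipocalin that binds bacterial siderophores, had intensities of 899 and 918 on the HeJ ozone arrays and of 2695 and 2387 on the HeOuJ ozone arrays. The air arrays read 1296 and 980 in HeJ and 1405 and 1571 in HeOuJ, so both HeOuJ ozone values lay above the other 6. Lcn2 was 2.79-fold higher in HeOuJ ozone, a log2 difference of 1.48 (SE 0.17, adjusted p = 0.0236), beside 0.40 in air. With the 5'/3' covariate it was 0.90 (SE 0.52). A second Lcn2 probe set gave a log2 difference of 0.19 in ozone and did not pass.

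Krt18, the type I keratin of simple epithelia, read 1434 and 1139 in HeJ ozone and 2505 and 3029 in HeOuJ ozone. In air the order was the other way, with 1083 and 1181 in HeJ and 919 and 817 in HeOuJ. The log2 difference was 1.11 in ozone (SE 0.17, adjusted p = 0.0454) and -0.38 in air, and the change between the exposures was 1.49 (SE 0.25), which did not pass (adjusted p = 0.16).

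The RNA of Tnf, the inflammatory cytokine, was near the limit of measurement in HeJ. It read 51 and 57 in HeJ ozone, below the floor of 69.6 that was set for dim values, and 231 and 247 in HeOuJ ozone. In air it read 64 and 56 in HeJ and 103 and 73 in HeOuJ, so only the HeOuJ arrays lay above the floor. Because HeJ lay at the floor on both arrays, Tnf was at least 3.43-fold higher in HeOuJ ozone, a log2 difference of 1.78 (SE 0.30, adjusted p = 0.0479).

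F3, tissue factor, which starts the coagulation cascade, read 959 and 1214 in HeJ ozone and 2016 and 2144 in HeOuJ ozone. The values in air were 1406 and 1280 in HeJ and 1486 and 1341 in HeOuJ, so the substrains differed little there. Its log2 difference was 0.95 in ozone (SE 0.16, adjusted p = 0.0479) and 0.07 in air. Lrg1, a secreted glycoprotein of the acute phase, read 2473 and 2448 in HeJ ozone and 4191 and 4655 in HeOuJ ozone. It passed with a log2 difference of 0.84. Lrg1 was singled out after its values were seen.

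**Figure D2:**
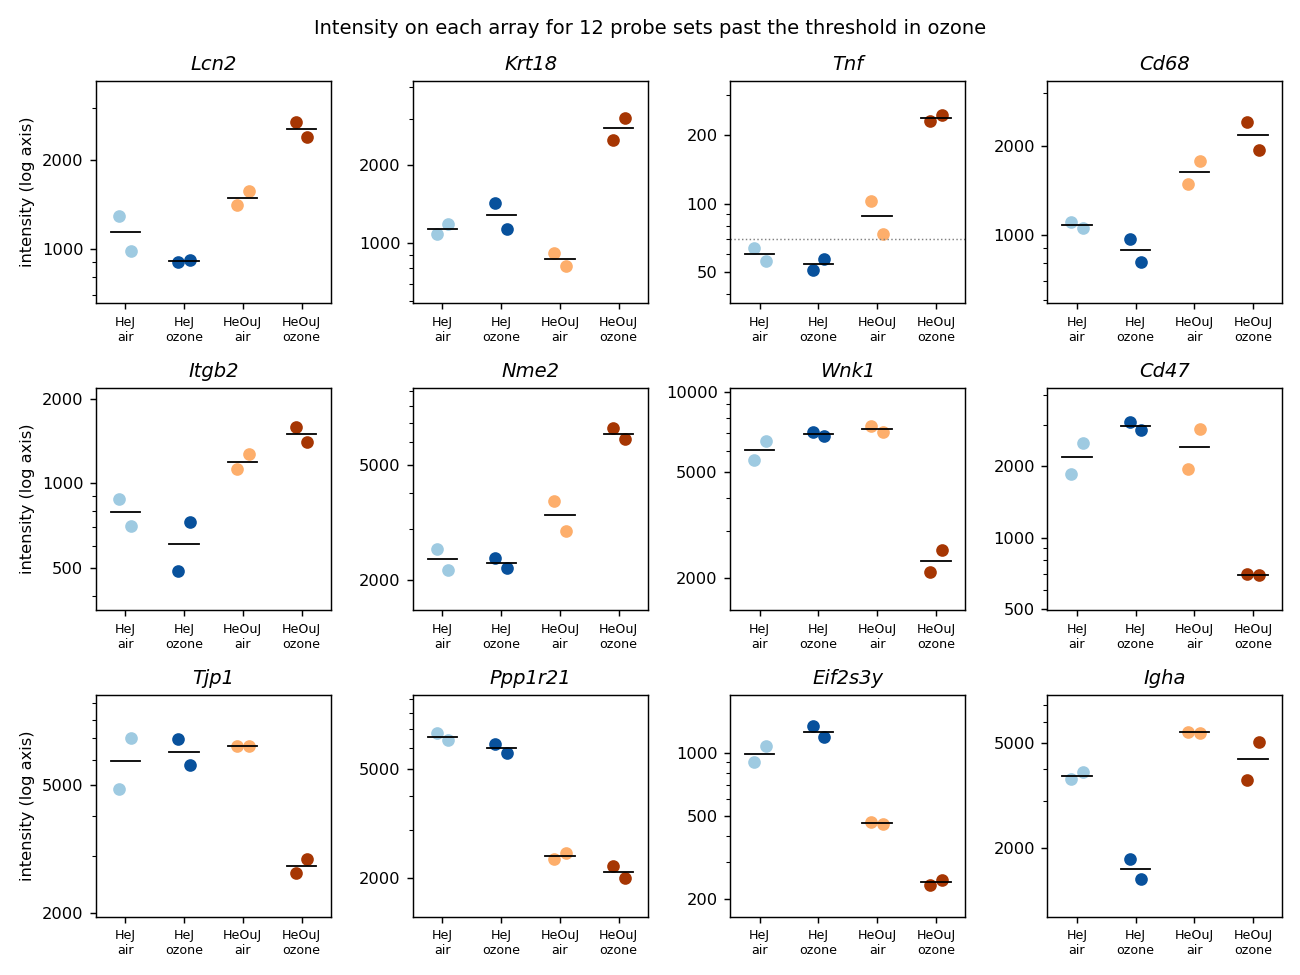
Deposited intensity (log axis, range set for each panel) of 12 probe sets that passed in ozone on each array of the 4 groups, with a line at the mean of a group's 2 arrays; the dotted line in the Tnf panel is the floor of 69.6. Lcn2, Krt18, Tnf and Nme2 are highest on the HeOuJ ozone arrays, Wnk1, Cd47 and Tjp1 are lowest there, Ppp1r21 and Eif2s3y are lower in HeOuJ in both exposures, and Igha is lowest in HeJ ozone.

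The promoters of Lcn2, Tnf and Krt18 are shown because they head 3 inflammatory or epithelial genes that were higher in HeOuJ ozone. Each is the 250 bases before the gene's start, 5' to 3' on the gene's own strand, from RefSeq on GRCm38.p6, at chr2:32387740-32387989 (minus strand), chr17:35202008-35202257 (minus strand) and chr15:102027966-102028215 (plus strand). Capitals mark a match to the NF-kB consensus or to TATAAA on either strand.
Lcn2: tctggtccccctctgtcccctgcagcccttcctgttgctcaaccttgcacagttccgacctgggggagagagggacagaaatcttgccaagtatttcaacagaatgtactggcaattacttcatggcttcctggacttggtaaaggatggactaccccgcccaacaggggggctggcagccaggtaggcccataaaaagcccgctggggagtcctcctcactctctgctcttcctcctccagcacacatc
Tnf: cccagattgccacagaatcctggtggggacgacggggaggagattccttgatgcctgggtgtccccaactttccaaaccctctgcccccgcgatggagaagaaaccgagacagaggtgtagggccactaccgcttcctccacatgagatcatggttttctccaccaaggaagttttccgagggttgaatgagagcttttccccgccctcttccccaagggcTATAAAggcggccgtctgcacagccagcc
Krt18: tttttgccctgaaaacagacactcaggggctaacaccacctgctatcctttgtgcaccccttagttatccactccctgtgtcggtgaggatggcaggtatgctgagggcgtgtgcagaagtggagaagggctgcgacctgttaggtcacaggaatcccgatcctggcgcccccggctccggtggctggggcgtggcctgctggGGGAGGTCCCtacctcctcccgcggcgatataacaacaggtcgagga
The Krt18 window held an NF-kB consensus match that begins at base -47, the Tnf window held TATAAA from base -29, and the Lcn2 window held neither. Over the windows that could be matched, the NF-kB consensus was found in 4 of 24 for genes higher in HeOuJ ozone (16.7%) and 6 of 53 for genes lower (11.3%), beside 8.68% of 6098 tested genes and 7.01% of 27025 promoters in the table. TATAAA was found in 3 of 24 (12.5%) and 4 of 53 (7.55%), beside 8.74% and 12.97%. A match describes the letters in this window only. The 2 motifs did not overlap in the windows shown.

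The leukocyte genes Cd68 and Itgb2 were higher as well. Cd68, a lysosomal glycoprotein of macrophages, read 965 and 806 in HeJ ozone and 2405 and 1932 in HeOuJ ozone, with 1104 and 1049 in HeJ air and 1481 and 1773 in HeOuJ air. The substrains did not overlap in either exposure, and the log2 difference was 1.29 in ozone (SE 0.18, adjusted p = 0.0329) and 0.59 in air. Itgb2, the shared beta chain of the leukocyte integrins, read 490 and 727 against 1583 and 1403 in ozone, and 878 and 705 against 1122 and 1268 in air. It was 2.50-fold higher in HeOuJ ozone, a log2 difference of 1.32 (SE 0.23, adjusted p = 0.0479). Tyrobp, a signalling adaptor of myeloid and natural killer cells, and Cyba, the p22 subunit of the phagocyte NADPH oxidase, passed with log2 differences of 0.81 and 0.93, though they were singled out after their values were seen. Tyrobp read 1835 and 1542 in HeJ ozone against 2860 and 3057 in HeOuJ ozone, and it was lowest in HeJ ozone among the 4 groups.

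Lists of macrophage and neutrophil markers were mixed. In the list of 9 measured alveolar macrophage markers, 5 were higher and 4 lower in HeOuJ ozone and 1 passed (Cd68). The median log2 difference was 0.28, beside 0.01 over 7629 genes. Of those 7629 genes, 51.6% were higher in HeOuJ ozone and 0.367% passed as higher. The summed level of the macrophage list was 10847 to 11612 in HeJ ozone and 14090 to 15801 in HeOuJ ozone. In air it was 13364 to 13430 in HeJ and 16407 to 18571 in HeOuJ, so HeOuJ was higher in both exposures. Chil3, a chitinase-like protein of activated macrophages, read 2062 and 1730 against 2719 and 2459, a log2 difference of 0.45 that did not pass. Of 13 neutrophil markers, 7 were higher and 6 lower with a median of 0.00, and Lcn2 alone passed. The part of cell numbers in these differences was not tested.

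Immunoglobulin chains gave the largest difference among the genes higher in HeOuJ, but their probe sets disagreed. One Ighm probe set, for the heavy chain of IgM, read 545 and 639 in HeJ ozone and 2844 and 3062 in HeOuJ ozone, with 1610 and 1011 in HeJ air and 3244 and 2472 in HeOuJ air. The substrains did not overlap in either exposure, with a log2 difference in ozone of 2.32 (SE 0.23, adjusted p = 0.0127), beside 1.15 in air and 0.98 (SE 0.57) in ozone with the 5'/3' covariate. Another Ighm probe set had a log2 difference of 0.07 in ozone and of -1.51 in air, where it passed in the opposite direction. The further Ighm probe sets that were tested did not pass in ozone and ran from -0.07 to 1.87. Gene segments of this family are near-identical, so reads on any of these probe sets may be shared.

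Igha, the heavy chain of the mucosal antibody IgA, read 1804 and 1515 in HeJ ozone, the lowest of the 8 arrays, and 3614 and 5056 in HeOuJ ozone. The air values were 3646 and 3868 in HeJ and 5507 and 5478 in HeOuJ. The log2 difference was 1.37 in ozone (SE 0.17, adjusted p = 0.0251) and 0.55 in air, and within HeJ the ozone arrays lay 1.18 log2 units below the air arrays (a difference of -1.18). Further Igha probe sets gave 0.34 and 0.42 in ozone and -0.37 and -0.03 in air, and did not pass. The latter of them lay below the floor on both HeJ ozone arrays. Of the 12 measured B and plasma cell markers, 11 were higher in HeOuJ ozone and 1 passed. Their median log2 difference was 0.54 in ozone and -0.37 in air. Over all 7629 genes, 51.6% were higher in HeOuJ ozone and 0.367% passed as higher. The summed level of the 12 markers was 15498 to 16725 in HeJ ozone and 22842 to 24661 in HeOuJ ozone. In air it was 28617 to 29766 in HeJ and 22387 to 23836 in HeOuJ. HeJ ozone was thus the group with the lowest summed B and plasma cell signal. Bright probe sets weigh most in such a sum. The Ighm probe set in it read 7235 and 7226 in HeJ air and 2502 and 2561 in HeOuJ air. In ozone that probe set read 3609 and 3482 in HeJ and 3434 and 4045 in HeOuJ.

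Nme2, a nucleoside diphosphate kinase, read 2392 and 2208 in HeJ ozone and 6730 and 6136 in HeOuJ ozone, and 2555, 2168, 3742 and 2950 in HeJ and HeOuJ air. Both HeOuJ ozone values lay above all others, with a log2 difference of 1.48 (SE 0.16, adjusted p = 0.0142), which was 0.58 (SE 0.37) with the 5'/3' covariate. Suclg1, the alpha subunit of succinyl-CoA ligase of the citric acid cycle, read 1480 and 1410 against 2712 and 3626, a log2 difference of 1.12 (adjusted p = 0.0454). Hk1, hexokinase, read 4127 and 3776 against 9984 and 7134, and Plin2, which coats lipid droplets, read 3040 and 2332 against 5684 and 5200. Hk1 and Plin2 passed with log2 differences of 1.10 and 1.03 and were singled out after their values were seen. Fabp1, the liver fatty acid binding protein, read 167 and 136 against 622 and 504 in ozone, and 227 and 204 against 762 and 551 in air. Its log2 difference was 1.89 in ozone and 1.59 in air, and a second Fabp1 probe set gave -0.17 in ozone. With the 5'/3' covariate the first gave 0.78 (SE 0.98).

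Acp1, a small tyrosine phosphatase, passed on 1 probe set with a log2 difference of 1.36 (adjusted p = 0.0494), while its 5 further probe sets ran from -0.28 to 1.28 and did not pass. Among the 15 largest differences in this direction were also Rax, Tspan5, Zp1 and Syt11, all of them dim. Rax, a homeobox gene of the developing eye, read 83 and 75 in HeJ ozone and 538 and 276 in HeOuJ ozone. Tspan5, a tetraspanin, read 71 and 49 against 201 and 395. Their log2 differences were 2.29 and 2.01, at adjusted p of 0.0494 for both, and that of Rax was 1.501 (SE 1.33) with the 5'/3' covariate. Zp1, an egg coat protein, read 78 and 76 against 382 and 238, and Syt11, a synaptotagmin, 32 and 86 against 304 and 290. On these 4 the HeOuJ ozone arrays were above the HeJ ozone arrays, and the values near the floor of 69.6 limit what the folds mean.

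Wnk1, a kinase that controls ion transport across epithelia, read 7107 and 6856 in HeJ ozone and 2107 and 2555 in HeOuJ ozone, against 5572 and 6536 in HeJ air and 7494 and 7068 in HeOuJ air. Both HeOuJ ozone arrays lay far below the other 6. HeJ was 3.01-fold higher in ozone, a log2 difference of -1.59 (SE 0.14, adjusted p = 0.00895), beside 0.27 in air. The change of the substrain difference between the exposures was -1.86 (SE 0.20). Its adjusted p in limma, 0.0509, was the smallest for that change, shared with Eif4a2 (-1.66) and an Ighm probe set (1.59). Further Wnk1 probe sets gave -1.45 and -0.81 in ozone.

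Cd47, a surface protein that restrains phagocytosis by macrophages, read 3070 and 2839 in HeJ ozone and 702 and 692 in HeOuJ ozone, with 1858 and 2517 in HeJ air and 1958 and 2878 in HeOuJ air. It was 4.24-fold higher in HeJ ozone, a log2 difference of -2.08 (SE 0.21, adjusted p = 0.0127), while a second Cd47 probe set gave -0.35. With the 5'/3' covariate the first gave -0.82 (SE 0.50). Tjp1, which encodes the scaffold ZO-1 of epithelial tight junctions, read 6963 and 5780 against 2657 and 2952 in ozone, and 4867 and 7021 against 6650 and 6608 in air. Only the HeOuJ ozone arrays were low. The log2 difference was -1.18 (SE 0.19, adjusted p = 0.0454), while a second Tjp1 probe set, below the floor on both HeJ ozone arrays and on the air arrays, read 245 and 111 in HeOuJ ozone and did not pass. With the 5'/3' covariate the difference of Tjp1 was -0.33. In the list of 20 junction and adhesion genes, 10 were higher and 10 lower in HeOuJ ozone. The median was -0.01, and Tjp1 was the 1 that passed. Over all 7629 genes, 51.6% were higher in HeOuJ ozone and 0.708% passed as lower.

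Marcks, an actin-binding substrate of protein kinase C, read 2225 and 2222 in HeJ ozone and 668 and 726 in HeOuJ ozone. The air arrays lay between 1372 and 2619, above both HeOuJ ozone values. The log2 difference was -1.67 (SE 0.23, adjusted p = 0.0329), and -0.29 with the 5'/3' covariate. Tug1, a long noncoding RNA, read 1220 and 1253 against 263 and 249 in ozone, a log2 difference of -2.27 (SE 0.29, adjusted p = 0.0251). The air arrays read 602 and 1163 in HeJ and 1173 and 1129 in HeOuJ, and a second Tug1 probe set gave -0.47. With the covariate the first gave -0.89 (SE 0.80). Zfp281, a zinc finger transcription factor, read 739 and 693 against 55 and 121, the lower of these below the floor, a log2 difference of -2.97 (SE 0.48, adjusted p = 0.0454), and with the 5'/3' covariate it turned to 0.55 (SE 0.87). Clcn4, a chloride/proton exchanger of endosomes, read 887 and 1051 against 275 and 275. Its log2 difference was -1.81 (adjusted p = 0.0479), 0.09 on a second probe set and 0.04 with the covariate.

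The other named genes of this direction included RNA-binding and zinc finger proteins. Rbms1, an RNA-binding protein, read 3583 and 3495 against 1202 and 1137, and its log2 difference of -1.60 (adjusted p = 0.0236) was joined by -0.83 on a second probe set that just missed the threshold. Zmym4, a zinc finger protein, read 1321 and 1308 against 473 and 428. Bzw1, a regulator of translation initiation, read 1540 and 1342 against 392 and 373. Zmym4 and Bzw1 passed with log2 differences of -1.55 and -1.91. With the 5'/3' covariate Rbms1, Zmym4 and Bzw1 were at -0.57 (SE 0.51), -0.89 (SE 0.61) and -0.25 (SE 0.78). On each of these genes the HeOuJ ozone arrays were the lowest of the 8. Ddx17, an RNA helicase, read 4479 and 4476 against 2273 and 2582, a log2 difference of -0.89 beside -0.39 in air. Ola1, S100pbp, Pou3f2 and Yme1l1 fell below the floor on both HeOuJ ozone arrays, so their log2 differences of -2.35, -2.06, -1.88 and -1.66 are lower bounds in size. Prpmp5, a proline-rich protein gene, read 293 and 310 against 71 and 58, a log2 difference of -2.10, while its second probe set gave 0.81. With the covariate the first gave -1.09 (SE 1.09).

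Further genes of this direction, singled out after their values were seen, included genes of signalling, ubiquitin transfer and chromatin. Eif4a2, a translation initiation helicase, read 8210 and 8131 against 3751 and 4033 (log2 difference -1.07). Kitl, the ligand of the Kit receptor, read 3665 and 3472 against 1808 and 1525 (-1.10), and Nras, a small GTPase, 3224 and 3591 against 1898 and 1617 (-0.96). The deubiquitinases Usp34 and Usp9x had log2 differences of -1.07 and -1.05, and the conjugating enzymes Ube2n and Ube2g1 -0.91 and -0.87. The transcription factors Bcl6, Zeb1 and Nfib had -1.27, -0.85 and -0.69, and the chromatin remodeller Smarca2 had -0.97. The HeOuJ ozone arrays were the lowest 2 of the 8 at 67 of the 69 probe sets lower in HeOuJ, beside 9.05% of all probe sets. At the 38 that were higher, they were the highest 2 at 30, beside 11.9%, and the HeJ ozone arrays were the lowest 2 at 21, beside 3.52%. These ranks use the values that chose the probe sets.

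Of the 93 genes, 36 were read by at least 1 more probe set without a pass. All further probe sets pointed the same way for 18 of the 36, and for 8 of them all reached at least 50% of the log2 difference. Several values above show how far probe sets of 1 gene can differ.

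Fewer probe sets passed in air. There 5 did so (0.0456%), 3 higher and 2 lower in HeOuJ, and 625 had an unadjusted p under 0.05, against 1973 in ozone. Of the 38 probe sets higher in HeOuJ ozone, 30 were also higher in HeOuJ air, beside 51.5% of all probe sets, and at 20 the air arrays did not overlap (17.1% of all, of the 32.7% apart in either direction). Of the 69 that were lower, 28 were also lower in air, beside 48.4%, and at 14 the air arrays did not overlap (15.5%), while at 17 they lay apart in the opposite direction. The median log2 difference in air was 0.22 for the first group and 0.05 for the second. Across all probe sets the differences in ozone and in air had a Pearson correlation of 0.06, a description over probe sets that share arrays and are not independent. No probe set passed the limma test for a change of the substrain difference between the exposures (1252 had an unadjusted p under 0.05).

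**Figure D3:**
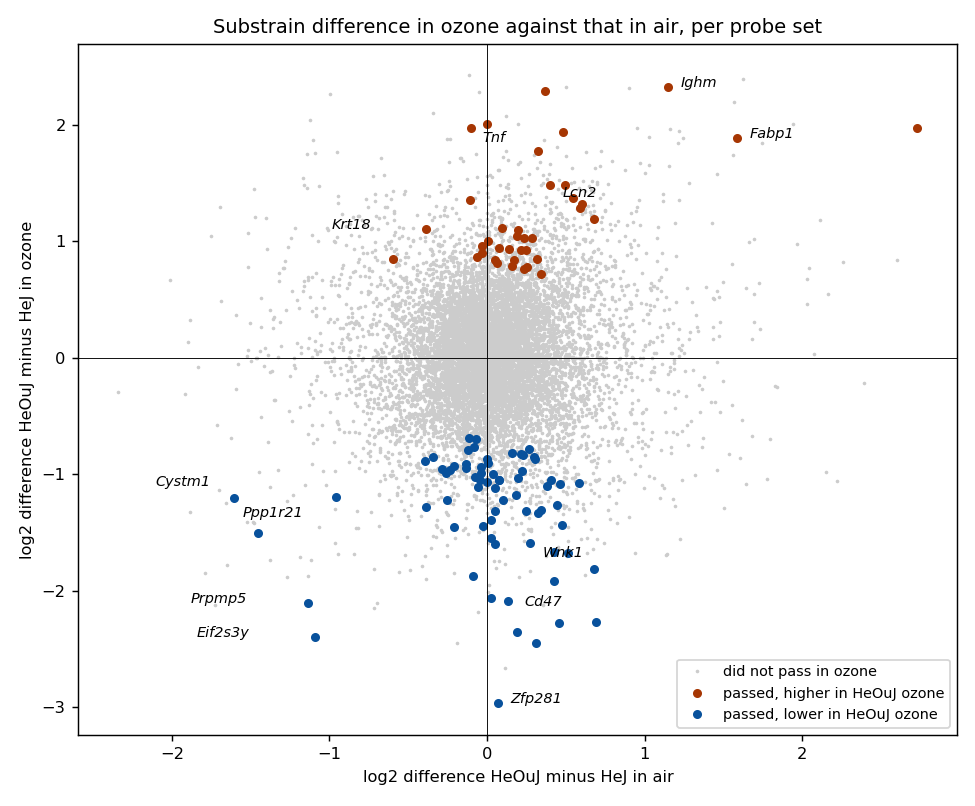
Log2 difference between HeOuJ and HeJ in ozone (vertical) and in air (horizontal) for each of 10953 probe sets, coloured where the difference in ozone passed. The 69 probe sets that were lower in HeOuJ ozone lie mostly near 0 on the air axis, with Ppp1r21, Cystm1, Prpmp5 and Eif2s3y to the left, while 30 of the 38 that were higher lie to the right of 0.

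Ppp1r21, a protein of endosomes, differed alike in both exposures and was the 1 probe set that passed in both. It read 6199 and 5710 in HeJ ozone against 2203 and 1991 in HeOuJ ozone, and 6784 and 6373 against 2335 and 2466 in air. Its log2 difference was -1.51 in ozone (SE 0.12, adjusted p = 0.00895) and -1.45 in air (adjusted p = 0.00551), and the groups did not overlap. Cystm1, a small membrane protein, read 3703 and 3692 against 1718 and 1512 in ozone and 4423 and 3186 against 1451 and 1052 in air. It passed in ozone with -1.20 and just missed in air with -1.60 (adjusted p = 0.0536), and with the 5'/3' covariate the difference in ozone was -2.61 (SE 0.39). Tubb4a, a beta tubulin, read 741 and 749 against 303 and 312 in ozone and 858 and 807 against 602 and 673 in air, with log2 differences of -1.28 and -0.39.

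Eif2s3y, a Y-linked subunit of translation initiation factor 2, read 1337 and 1183 in HeJ ozone and 233 and 246 in HeOuJ ozone, with 900 and 1075 in HeJ air and 467 and 455 in HeOuJ air. The log2 difference was -2.39 in ozone (SE 0.21, adjusted p = 0.00895) and -1.09 in air. This probe set is of a kind that can share sequence within a gene family, and the gene has an X-linked copy. All 3 measured Y-linked genes were lower in HeOuJ in ozone, with a median of -1.84, and the summed level of the 3 was 1675 to 1780 in HeJ ozone, 309 to 426 in HeOuJ ozone, 1174 to 1411 in HeJ air and 632 to 684 in HeOuJ air. Xist, the RNA of the inactive X chromosome, was dim on every array, between 16 and 160, and read 82 and 37 in HeJ ozone and 132 and 160 in HeOuJ ozone. The labels give no sex, and the part of the sex of the animals in any difference was not tested.

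Several genes known to respond to endotoxin or ozone did not differ beyond the threshold. Cd14, the co-receptor of Tlr4, read 2584 and 2714 in HeJ ozone and 2797 and 3696 in HeOuJ ozone, a log2 difference of 0.28 (SE 0.16). Nos2, the inducible nitric oxide synthase, read 148 and 135 against 297 and 61 and had a log2 difference of 0.02 (SE 0.66), so its HeOuJ arrays lay on both sides of the HeJ ones. Cxcl2, a neutrophil chemokine, had 0.26 (SE 0.46). Il6 read 12 and 13 in HeJ ozone, below the floor, and 152 and 81 in HeOuJ ozone, and did not pass (adjusted p = 0.33). Saa3, an acute phase serum amyloid, read 979 and 1086 against 2562 and 2167. Its arrays did not overlap, but the log2 difference of 1.19 (SE 0.32) did not pass (adjusted p = 0.11). The metallothioneins Mt1 and Mt2 had log2 differences of 0.48 and 0.57, at adjusted p of 0.16 and 0.088. H2-Ea had 0.28. Marco lay at or near the floor and was not tested.

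Reg3g, an antibacterial lectin of airway epithelium, changed order between the exposures on 1 probe set and not on a second. The first read 803 and 874 in HeJ ozone against 1401 and 1313 in HeOuJ ozone, and 493 and 562 against 250 and 286 in air. Its HeOuJ arrays were thus above HeJ in ozone and below it in air. Neither the log2 difference of 0.70 in ozone (adjusted p = 0.14) nor that of -0.98 in air passed, nor the change of 1.67 between them (adjusted p = 0.156). The second probe set gave 0.40 in ozone and 0.23 in air, a change of 0.17, and did not pass. Klf4, an epithelial transcription factor, read 2138 and 2228 against 1027 and 762 in ozone, a log2 difference of -1.30 that missed the threshold (adjusted p = 0.0667).

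The heat shock genes Hspa1a and Hspa1b, whose coding sequences are near-identical, passed in air and not in ozone. Hspa1a read 316 and 472 in HeJ air against 1961 and 2095 in HeOuJ air, and 597 and 461 against 424 and 485 in ozone, where the arrays overlapped. Hspa1b read 435 and 439 against 2249 and 1941 in air, and 399 and 466 against 805 and 724 in ozone. Their log2 differences in air were 2.39 and 2.26 and passed (adjusted p = 0.0249 and 0.00551), and in ozone they were -0.21 and 0.83 and did not. The change between the exposures, -2.60 and -1.43, did not pass (adjusted p = 0.115 and 0.157). Of 27 measured chaperones, 23 were higher in HeOuJ in air with a median of 0.39, and 17 in ozone with a median of 0.08. Of all 7629 genes tested, 3809 were higher in air (median 0) and 3936 in ozone (median 0.01).

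Gene lists were described by counts and medians over 1 probe set per gene, beside 7629 genes of which 51.6% were higher in HeOuJ ozone, 28 (0.367%) passed as higher and 54 (0.708%) as lower, with a median log2 difference of 0.01. Acute phase proteins, made in quantity during inflammation, were higher for 11 of 15 with a median of 0.33. Lcn2 passed, and Saa3 at 1.19 and Saa2 at 1.52 did not. Keratins were higher for 6 of 9 with a median of 0.54, Krt18 passing and its partner Krt8 at 0.55 not. The summed keratin level was 19418 to 21982 in HeJ ozone and 28180 to 30383 in HeOuJ ozone, with 17248 to 20091 in air. The endotoxin receptor and NF-kB list was higher for 11 of 21 with a median of 0.10 and 0 passing in limma. In it 6 genes had an unadjusted p under 0.05, beside 1973 of all 10953 probe sets. In that list the adhesion molecules Icam1 and Vcam1 had log2 differences of 0.66 (adjusted p = 0.0707) and -0.97 (adjusted p = 0.0801) and did not pass, and the further Vcam1 probe sets were at -0.78 and 0.07. Of 38 cytokines and receptors, 23 were higher with a median of 0.08, and Tnf passed.

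Striated muscle genes, which can come from heart or muscle taken with the lung and from the pulmonary veins of mice, were higher in HeOuJ ozone for 25 of 27, with a median of 0.40 in ozone and of 0.02 in air. Under quantile normalisation 23 were higher and the median was again 0.40. Their summed level was 32466 to 33122 in HeJ ozone and 41913 to 42113 in HeOuJ ozone. Between these lay the air arrays, at 37450 to 40579 in HeJ and 37248 to 38848 in HeOuJ. Myh6, the cardiac myosin heavy chain, read 1568 and 1603 against 2930 and 2763 and passed with a log2 difference of 0.84 (SE 0.15, adjusted p = 0.0494), which was 0.20 (SE 0.42) with the 5'/3' covariate. The part of the amount of muscle in other differences was not tested. Oxidative phosphorylation subunits were higher for 30 of 40 with a median of 0.18, and 0 passed in limma. Of the 40, 8 had an unadjusted p under 0.05, beside 1973 of all 10953 probe sets. Cox5b had 0.76 (adjusted p = 0.0648).

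Genes of vessels and of matrix leaned the other way without any passing. Of 12 endothelial markers, 9 were lower in HeOuJ ozone with a median of -0.26, and 0 passed in limma (6 at an unadjusted p under 0.05). Emcn, the endothelial sialomucin endomucin, read 1938 and 2117 against 1325 and 1384, a log2 difference of -0.58 (adjusted p = 0.0808). Of 36 matrix genes, 23 were lower with a median of -0.17, and 0 passed (11 at an unadjusted p under 0.05). Over all 10953 probe sets, 1973 had an unadjusted p under 0.05 in limma. The collagen chains Col6a1 and Col6a3 had -0.88 and -0.55 at adjusted p of 0.0554 and 0.0749, and the median of the matrix list was 0.26 with the 5'/3' covariate. Ribosomal protein genes were higher for 18 of 27 with a median of 0.23, which was 0.09 under quantile normalisation and -0.19 with the covariate. The median of the 4 club and secretory cell genes, 0.31, turned to -0.07 under quantile normalisation.

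**Figure D4:**
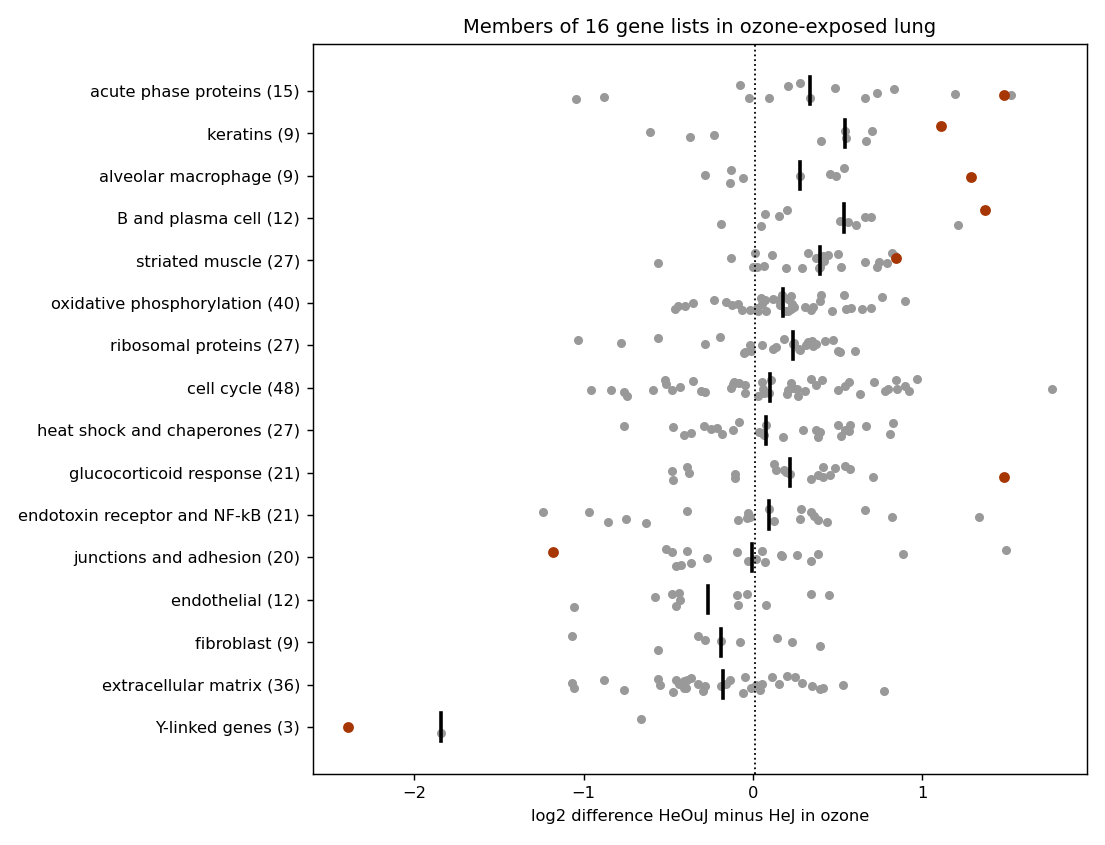
Log2 difference between HeOuJ and HeJ in ozone for each measured member of 16 gene lists (number of members in brackets), with a bar at the list's median, the median of all 7629 genes as a dotted line, and members that passed in orange. Striated muscle, keratins and B and plasma cell genes have medians of 0.40, 0.54 and 0.54, and endothelial and matrix genes of -0.26 and -0.17.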

How the data were processed

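Affymetrix arrays had been hybridised with RNA of whole mouse lung, per the labels. The deposited values are 1 linear intensity per probe set and array. Their 2% trimmed mean lay between 800.385 and 800.413 on every array, so they had been scaled before deposit; the program is not named in the sources used here. Of 12488 probe sets, 66 controls and 1469 dim ones were left out. Values below the 20th percentile (69.6) were raised to it before log2 was taken, and 10953 probe sets above it on at least 2 arrays were tested. Gene names came from an annotation of 2016. All 8 arrays entered 1 limma 3.58.1 model of 4 group means (R 4.3.3; eBayes trended on intensity), with 4 residual and 4.54 prior degrees of freedom. Benjamini-Hochberg adjustment ran over all tested probe sets, at a threshold of 0.05; the median SE was 0.30, which the number of arrays limits. Standard errors are the moderated ones. The code was tested on simulated data.

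The comparison, the lists and the named genes were chosen with earlier results of these data known. Named were the 15 largest differences in each direction that passed with arrays apart, up to 15 that were apart in both exposures, from each of 50 lists up to 4 members that passed or 2 of smallest p, and 18 followed genes. Of 1095 listed genes, 836 were measured, each by its brightest probe set. A unique gene was named for 10833 probe sets, more than 1 for 396, and no gene for 1193. Motifs were searched in RefSeq promoters of GRCm38.p6. Alternatives covered scaling, floor, filter, variance model, arrays, letters as blocks, 5'/3' covariate, array weights, threshold and each array left out in turn. Plots used matplotlib 3.10.9 under Python 3.11.15.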

Additional observations from a re-analysis of the deposited data

How the results depend on the processing

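For the difference in ozone, 107 probe sets passed, and all 107 kept their direction wherever they were tested, except that 6 turned with the 5'/3' covariate. Quantile normalisation gave 107, floors at the 10th and 30th percentile 136 and 139, and a robust prior 88. Median centring gave 18, no filter 57, a filter at the median 282, array weights 13, and an adjusted p of 0.10 gave 434. The count was 0 without a variance trend, with only the ozone arrays and with the covariate (1770, 1776 and 470 at an unadjusted p under 0.05). Without each array in turn it ran from 0 to 31. With the covariate Clcn4 was at 0.039 and Zfp281 at 0.55. The cause was not tested. In air, where 5 passed, median centring gave 8, no filter 11, the filter at the median 8, no trend 3, only the air arrays 0, the covariate 0, array weights 9, an adjusted p of 0.10 gave 9, and leaving out an array 0 in every case. For the change between exposures, where 0 passed, quantile normalisation, both floors and an adjusted p of 0.10 gave 3 each, no filter 10 and the filter at the median 9.

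The letters 1a and 1b as a replicate block gave 185 in ozone and 105 of the 107 were among them. The labels do not say that a letter marks a shared batch. The correlation of 1a minus 1b between groups ran from -0.01 to 0.14 and was over 0.1 for 3 of 6 pairs of groups, so the fit without the block was kept. The 2 arrays of a group limit all of these counts, and 20% of values lay at the floor, where changes are understated.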

Other observations

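Of 48 cell cycle genes, 29 were higher in HeOuJ ozone with a median log2 difference of 0.10, and Cks1b, a cyclin kinase subunit, read 620 and 531 in HeJ ozone against 1073 and 1067, at 0.90 (adjusted p = 0.11). Of 30 interferon response genes, 18 were lower with a median of -0.02. Ifi204, an interferon-induced gene, read 366 and 319 against 49 and 127, at -1.86 (adjusted p = 0.0707). Of 32 chemokines and receptors, 18 were higher with a median of 0.11, and Ccl5, a T cell attractant, was at 0.98 while Ccr2, the monocyte chemokine receptor, was at -1.15. Neither passed (adjusted p = 0.0724 and 0.0992).

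Sod3, the extracellular superoxide dismutase, read 5711 and 6312 in HeJ ozone against 2281 and 1855 in HeOuJ ozone, while the HeOuJ air arrays read 3617 and 8576. Its log2 difference of -1.55 did not pass (adjusted p = 0.0687), and the list of 35 antioxidant and metallothionein genes had a median of 0.03. Pdia6, a disulfide isomerase of the endoplasmic reticulum, read 1262 and 1068 against 2603 and 2938, at 1.25 (adjusted p = 0.0626), in a list of 16 stress genes of that organelle of which 12 were higher.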
